A study of Mus musculus with 6 samples.

Results

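The genes described here are 43 genes of glucose breakdown and of the cellular response to low oxygen, listed by name and sorted by role: 22 enzymes of glycolysis and of the branch point at pyruvate, 8 genes of the hypoxia-inducible factor (HIF) pathway itself, and 13 HIF target genes that are not glycolytic. A gene was measured where at least 1 probe set on the array was annotated to its symbol and to no other. This gave 36 of the 43 genes, on 70 of the 20393 probe sets that name a single gene. Ankrd37, Bnip3l, Eno1, Ero1l, Gpi1, Hif1an and Pfkfb4 had no such probe set and are not analysed here. Gapdh was read only by 3 control probe sets of the manufacturer, and Arnt, the constitutive partner of the HIF alpha subunits, lay below the level under which genes were not tested. The remaining 34 genes, 18 glycolytic, 6 of the pathway and 10 targets, were part of the comparison across 9248 genes.

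RNA came from 6 tumours of 4T1, a mouse mammary carcinoma line, with 1 Affymetrix array per tumour. In 3 tumours Bptf, the largest subunit of the chromatin remodelling complex NURF, had been knocked down (KD) with short hairpin RNAs carried by an MMLV retrovirus, and the other 3 grew from control cells. All tumours grew in Ifrg2r -/- (NSG) mice, which lack T, B and natural killer cells, in a mammary fat pad into which 10000 cells had been placed, and were taken after 21 days. Any necrotic tissue was cut away before RNA extraction, per the labels' protocols, and the amount removed from each tumour is not stated. The labels do not say what the control cells carried, how many clones lay behind each cell population or how old the mice were.

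Cells that lack oxygen rely on glycolysis for energy. The switch is run by HIF: the alpha subunits Hif1a and Epas1 are made continuously, and in the presence of oxygen the prolyl hydroxylases Egln1, Egln2 and Egln3 mark them for destruction by the ubiquitin ligase subunit Vhl. When oxygen is short the alpha subunits persist, pair with Arnt and switch on genes with a hypoxia response element, among them most glycolytic enzymes, Egln1 and Egln3 themselves, and genes of iron, matrix, vessel and mitochondrial control. Because the alpha subunits are regulated mainly as proteins, their RNA need not follow the state of the pathway, while that of their targets does so more closely. Solid tumours contain poorly perfused regions, and many tumour cells use glycolysis also when oxygen is present.

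The arrays had medians between 7.59 and 7.69 on the log2 scale. The targeted gene checked the labels first. Bptf had log2 levels of 9.60, 9.56 and 9.99 in the Bptf KD tumours, against 10.69, 9.77 and 10.59 in controls 1, 2 and 3, and on each of its other 3 probe sets the tumour labelled control 2 lay below every Bptf KD tumour. It is named by its label alone below, as "the tumour labelled control 2", and results that rest on it are given with and without it. Its skeletal muscle markers were also high: the 18 measured averaged 9.23, 6.37 and 7.41 in Bptf KD tumours 1, 2 and 3, against 8.75, 11.33 and 6.53 in the controls of the same numbers. Of these markers, 17 exceeded the average of the other 2 controls there by 2-fold or more (3.08% of all genes). All 6 measured keratinocyte markers and all 11 measured adipocyte markers were highest there as well (27.5% of all genes). Markers of tumour epithelium averaged 11.4 to 11.5 in Bptf KD tumours, against 10.3, 10.9 and 11.3 in controls 1, 2 and 3, and endothelial markers 7.50 to 7.57 in Bptf KD tumours, against 7.87, 7.42 and 7.63 in the same controls.

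Single tumours differed more for the non-glycolytic targets than for the other classes. Over all 34 genes, the SD over the 6 tumours had a median of 0.28 log2 units, against 0.23 for all genes tested, 9 of the 34 had an SD in the top 10% of all genes, and 14 spanned at least 2-fold between the lowest and the highest tumour, a span that 20.5% of all genes reached. The non-glycolytic targets varied most, with a median SD of 0.46, followed by the glycolytic enzymes (0.27) and the pathway genes (0.20). Within the Bptf KD group 3 of the 34 genes spanned 2-fold, against 2.17% of all genes, and within the control group 11 did, against 12.7% of all genes. The SD was smaller among Bptf KD than among control tumours for 27 of the 34 genes, close to the share over all genes tested (74.8%).

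**Figure D1:**
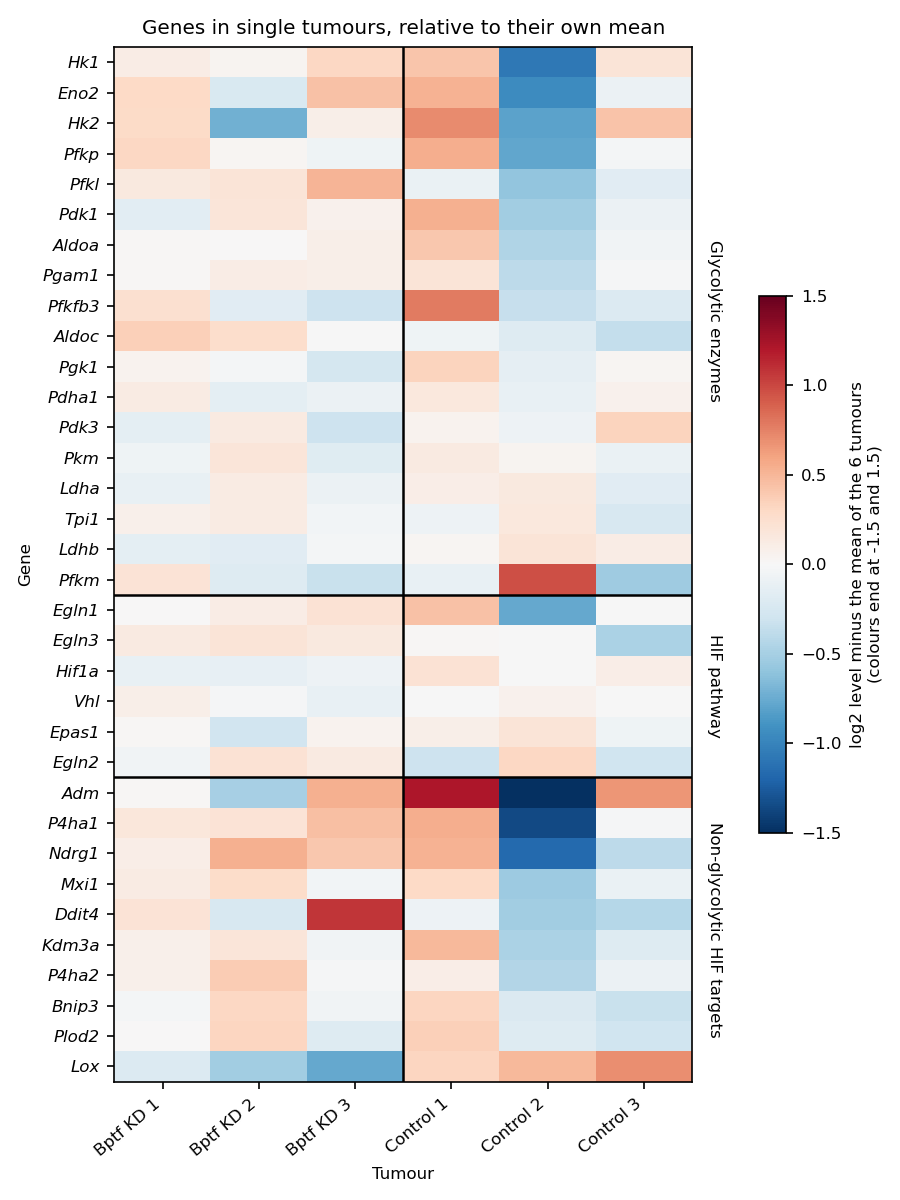
Level of the 34 tested genes (rows) in each tumour (columns), as the log2 level minus the gene's mean over the 6 tumours, with Bptf KD tumours on the left and controls on the right. Red is above and blue below the gene's own mean, and the column of the tumour labelled control 2 is the lowest for 17 of the 34 genes while that of control 1 is the highest for 18.

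The 2 ends of this range both lay among the controls. Control 1 had the highest level of the 6 tumours for 18 of the 34 genes, against 15.3% of all genes, and the tumour labelled control 2 had the lowest for 17, against 32.1% of all genes. Bptf KD tumours 1, 2 and 3 were highest for 2, 4 and 2 of the 34 genes (8.25%, 16.8% and 16.5% of all genes) and lowest for 0, 4 and 5 (7.67%, 9.81% and 11.5%). Control 1 was lowest for 1 (19.5%), the tumour labelled control 2 was highest for 6 (27.5%), and control 3 was highest for 2 (12.7%) and lowest for 7 (17%). Compared gene by gene, control 1 exceeded control 3 for 29 of the 34 genes (50.3% of all genes), with a median difference of 0.30. The tumour labelled control 2 lay below control 3 for 22 of the 34 (47.8% of all genes), with a median difference of -0.20, and below control 1 for 26 (47.1% of all genes). Control 1 stood at least 2-fold above the mean of the other 2 controls for 5 of the genes, against 1.39% of all genes. With 1 array per tumour, no test of a single tumour was possible.

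The non-glycolytic HIF targets showed the widest differences. All 10 had a level in the tumour labelled control 2 below the mean of controls 1 and 3, against 47.3% of all genes, with a median difference of -0.53, and 3 of them, Adm, P4ha1 and Ndrg1, by at least 2-fold (5.58% of all genes). Adm, which encodes the vasodilator peptide adrenomedullin, had log2 levels of 8.40, 7.88 and 8.91 in Bptf KD tumours, against 9.59 in control 1, 6.46 in the tumour labelled control 2 and 9.04 in control 3. Its level in the tumour labelled control 2 was thus 7.24-fold below the mean of the other 2 controls, and its SD over the 6 tumours exceeded that of 98.8% of all genes. P4ha1, a subunit of the enzyme that hydroxylates prolines of collagen, lay at 10.39, 10.42 and 10.67 in Bptf KD tumours, with controls 1, 2 and 3 at 10.76, 8.86 and 10.20. The tumour labelled control 2 was the only one below 10 for this gene, and a second probe set of P4ha1 gave the same lowest and highest tumours.

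Ndrg1, a stress-responsive gene often used as a marker of hypoxia, had log2 levels of 12.70, 13.14 and 13.01 in Bptf KD tumours, against 13.12, 11.43 and 12.21 in controls 1, 2 and 3. Control 1 was within the Bptf KD range and both other controls were below it. All 5 probe sets of Ndrg1 were lowest in the tumour labelled control 2. Their differences there from the mean of controls 1 and 3 ran from -1.455 to -0.785, so not all reached 2-fold. Among the smaller differences, Mxi1, which opposes Myc, lay 0.64 below the mean of controls 1 and 3 in that tumour and Kdm3a, a histone demethylase, 0.62 below. Kdm3a was at 10.37, 10.48 and 10.24 in Bptf KD tumours and 10.78, 9.82 and 10.10 in controls. The mitophagy receptor Bnip3 lay 0.21 below, the collagen lysyl hydroxylase Plod2 0.22 below and Lox, which crosslinks collagen, 0.02 below. Ddit4, an inhibitor of mTORC1 signalling that responds to stress hormones and low energy as well as to HIF, had a different outlier: Bptf KD 3 was at 11.34, against 10.48 and 10.03 in Bptf KD 1 and 2 and 10.20, 9.75 and 9.84 in the controls.

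**Figure D2:**
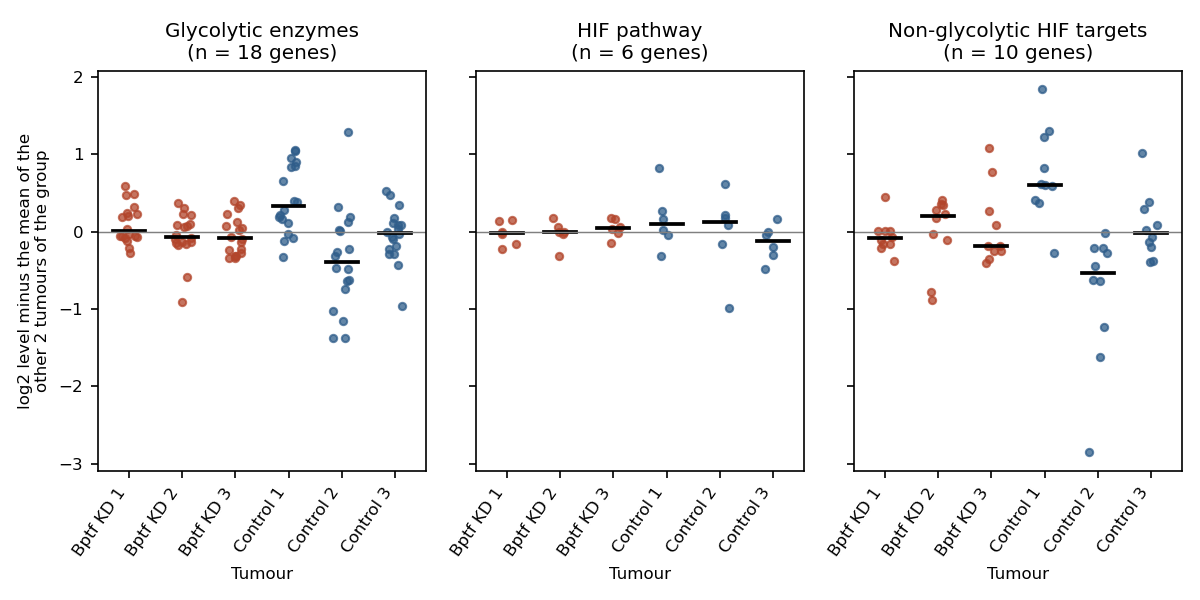
Each gene's log2 level in 1 tumour minus the mean of the other 2 tumours of its group, for the 3 classes of genes; points are genes, black bars are medians, Bptf KD tumours are red and controls blue. For the non-glycolytic targets the median is 0.61 in control 1 and -0.53 in the tumour labelled control 2, while the medians of the pathway genes lie between -0.12 and 0.13 and single pathway genes reach from -0.99 to 0.83, both of these Egln1.

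Glycolytic enzymes differed among themselves. In the tumour labelled control 2, 12 of the 18 were below the mean of controls 1 and 3 (47.3% of all genes). The median was -0.39, and 4 were at least 2-fold below (5.58% of all genes). These 4 were the hexokinases Hk1 (-1.38) and Hk2 (-1.37), which trap glucose in the cell, Eno2 (-1.16) and Pfkp (-1.03). Eno2 is an enolase isoform and Pfkp the platelet-type phosphofructokinase. A second, dimmer probe set of Pfkp gave only -0.205 there, with all tumours between 6.03 and 6.38. The 2-fold difference of Pfkp was thus seen on its brighter probe set alone. Hk1 had log2 levels of 9.72, 9.65 and 9.92 in Bptf KD tumours, against 10.03, 8.54 and 9.81 in controls 1, 2 and 3. Eno2 was at 6.92, 6.40 and 7.06 in Bptf KD tumours and 7.15, 5.68 and 6.53 in controls. The value of 5.68 lay below the level under which genes were not tested. How much of it is background is not known, and neither is the full size of the Eno2 difference. Hk2 was low in a second tumour too, at 10.09, 9.09 and 9.90 in Bptf KD tumours and 10.52, 9.01 and 10.24 in controls. For Hk2, Bptf KD 2 and the tumour labelled control 2 therefore stood together, 0.08 apart, below the other 4.

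Adm, P4ha1 and Hk2 were the most reduced genes in the tumour labelled control 2 among those with a single start site in the RefSeq promoter table (build GRCm38.p6), and their promoters, 250 bases before to 50 after the start, are shown to set the recognition core of HIF beside these values. Tpi1, which was highest in that tumour, is shown as a stretch without the core. Other genes that were highest there do hold it, with 7 and 2 in the stretches of Ldha, 1 and 6 in those of Egln2 and up to 3 in those of Pfkm. Capitals mark the core ACGTG or GCGTG on either strand, so that CACGT and CACGC are the same words read on the opposite strand. The palindrome CACGTG is counted on both strands, as 2 cores at 1 place. The stretch of Ldha with 7 cores holds 2 such palindromes. That of Egln2 with 6 cores and that of Pfkm with 3 hold 1 each. The table also holds Eno2, which was 1.16 lower in that tumour and has the core 0 times in its stretch, and Pfkp, 1.03 lower, which has it 4 times. The stretches shown are chr7:110627407-110627706 on the plus strand for Adm, chr10:59323046-59323345 on the plus strand for P4ha1, chr6:82774405-82774704 on the minus strand for Hk2 and chr6:124814109-124814408 on the minus strand for Tpi1.
Adm: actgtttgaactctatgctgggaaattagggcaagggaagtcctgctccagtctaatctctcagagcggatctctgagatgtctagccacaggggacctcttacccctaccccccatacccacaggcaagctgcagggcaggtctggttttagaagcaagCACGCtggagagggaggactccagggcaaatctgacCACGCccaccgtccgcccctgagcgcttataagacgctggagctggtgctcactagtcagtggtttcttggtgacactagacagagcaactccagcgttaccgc
P4ha1: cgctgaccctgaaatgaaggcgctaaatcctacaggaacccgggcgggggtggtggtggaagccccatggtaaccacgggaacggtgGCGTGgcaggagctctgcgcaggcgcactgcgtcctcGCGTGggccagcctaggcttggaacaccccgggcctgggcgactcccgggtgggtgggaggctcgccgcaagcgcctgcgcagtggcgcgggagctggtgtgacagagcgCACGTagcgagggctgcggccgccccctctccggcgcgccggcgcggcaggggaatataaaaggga
Hk2: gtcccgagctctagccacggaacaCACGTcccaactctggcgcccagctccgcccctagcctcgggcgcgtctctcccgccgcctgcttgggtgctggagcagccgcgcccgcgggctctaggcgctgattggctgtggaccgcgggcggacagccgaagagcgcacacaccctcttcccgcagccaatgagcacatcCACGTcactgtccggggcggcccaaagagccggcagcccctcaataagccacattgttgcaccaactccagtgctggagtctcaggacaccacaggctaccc
Tpi1: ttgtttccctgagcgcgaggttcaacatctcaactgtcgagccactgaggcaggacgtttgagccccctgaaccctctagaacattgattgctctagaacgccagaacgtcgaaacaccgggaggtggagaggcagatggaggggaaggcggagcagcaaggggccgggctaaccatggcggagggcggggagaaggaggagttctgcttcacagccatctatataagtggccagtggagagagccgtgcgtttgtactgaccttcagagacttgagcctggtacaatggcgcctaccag
The Adm stretch holds the core 2 times, P4ha1 3 times, Hk2 2 times and Tpi1 0 times. RefSeq start sites were found for 30 of the 34 tested genes, with 46 promoters in all, of which 35 (76.1%) held at least 1 core, against 43.8% of all 32851 promoters in the table. The core contains the pair CG, and the median number of CG pairs was 21 in the promoters of these genes and 7 in all promoters, so the 2 shares are not matched for base composition. A gene with several start sites counts more than once in both shares. Some stretches of Aldoa and of Pfkm overlap and hold the same core, so the promoters are not independent of each other. A core in these letters is a description of the sequence, and its absence from the Tpi1 and Eno2 stretches says only that these letters are not in this window.

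The isoform of phosphofructokinase that is typical of skeletal muscle went the other way. Pfkm lay at 8.93, 8.53 and 8.39 in Bptf KD tumours and at 8.61, 9.69 and 8.19 in controls 1, 2 and 3, so that the tumour labelled control 2 was 1.29 above the mean of the other 2 controls. It was the only one of the 34 genes at least 2-fold above them in that tumour, against 3.08% of all genes. Ldha and Ldhb, the lactate dehydrogenase subunits, and the triosephosphate isomerase Tpi1 were also highest there, 0.19, 0.12 and 0.32 above the mean of controls 1 and 3, and Egln2 and Epas1 were highest there too. Of 19 further genes of glucose use, 9 were highest of the 6 tumours in that tumour (27.5% of all genes) and 5 were lowest (32.1%). Their median difference from the mean of controls 1 and 3 was 0.10, against 0.03 over all genes. There were 3 at least 2-fold higher there (3.08% of all genes), named after their values were seen. They were the mutase Pgam2 (2.49), the enolase Eno3 (1.52) and the pyruvate dehydrogenase kinase Pdk4 (3.55), all of them abundant in muscle. Other members of the list were lower there. The glucose transporter Slc2a3 (-1.31) was the only one lower by 2-fold (5.58% of all genes). Further examples were the glucose transporter Slc2a1 (-0.63), the lactate transporter Slc16a1 (-0.66) and the muscle glycogen synthase Gys1 (-0.58). The muscle markers given above were also highest in the tumour labelled control 2, and their part in these values was not tested. In Bptf KD tumours 1, 2 and 3, Pgam2 was at 7.20, 6.29 and 6.59, and in controls 1 and 3 at 7.03 and 6.56. Pdk4 was at 7.50, 5.03 and 5.01 and at 6.41 and 5.40 in the same tumours, in part below the filter level of 6.09. Eno3 was at 10.89, 10.60 and 10.72 and at 10.41 and 10.85. The RNA came from whole tissue, in which fewer cells of a type and less RNA per cell cannot be told apart.

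Aldoa, Pgk1, Pgam1 and Pkm spanned less than 2-fold over the 6 tumours on the brightest probe set of each. Aldolase Aldoa was at 13.25, 13.24 and 13.32 in Bptf KD tumours and 13.64, 12.78 and 13.18 in controls, lowest in the tumour labelled control 2 on all 4 of its probe sets. Another of these probe sets spanned more than 2-fold, from 11.48 in the tumour labelled control 2 to 12.81 in control 1. Phosphoglycerate kinase Pgk1 ranged from 13.36 to 13.68 in Bptf KD tumours and from 13.49 to 13.96 in controls. The mutase Pgam1 ranged from 12.73 to 12.83 in Bptf KD tumours and from 12.32 to 12.91 in controls, and the pyruvate kinase Pkm from 12.41 to 12.77 in Bptf KD tumours and from 12.49 to 12.73 in controls. Control 1 was the highest of the 6 for the first 3 of these genes. Gapdh, on the 3-prime set of its control probes, was at 14.02, 13.94 and 13.97 in Bptf KD tumours and 14.09, 13.75 and 13.93 in controls 1, 2 and 3. Its lowest value was thus again that of the tumour labelled control 2, as on its other 2 control probe sets. Pdk1, the kinase that holds back pyruvate dehydrogenase and a HIF target itself, was 0.74 below controls 1 and 3 in the tumour labelled control 2. Pfkfb3, which makes the activator of phosphofructokinase, was at 8.78, 8.36 and 8.23 in Bptf KD tumours, against 9.32, 8.19 and 8.33 in controls 1, 2 and 3, with control 1 the highest of the 6.

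The HIF pathway genes themselves varied least among the classes, with Egln1 as the exception. Egln1, the main oxygen sensor and a HIF target, had log2 levels of 10.14, 10.24 and 10.35 in Bptf KD tumours, against 10.57, 9.36 and 10.13 in controls 1, 2 and 3, highest in control 1 and lowest in the tumour labelled control 2 like P4ha1. Egln2, the hydroxylase that is not induced by hypoxia, was at 9.43, 9.70 and 9.62 in Bptf KD tumours and 9.17, 9.79 and 9.18 in controls, with the tumour labelled control 2 highest. Egln3, the most inducible of the 3, lay at 11.81, 11.87 and 11.82 in Bptf KD tumours and 11.70, 11.67 and 11.20 in controls. Its second probe set placed the tumour labelled control 2 lowest instead (8.86, 8.94 and 8.77 in Bptf KD tumours, against 8.89, 8.17 and 8.22 in controls).

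Hif1a varied little, at 12.49, 12.48 and 12.52 in Bptf KD tumours, against 12.81, 12.59 and 12.70 in controls 1, 2 and 3. Its SD over the 6 tumours was lower than that of most genes, at the 17.1 percentile. Vhl was at 6.57, 6.46 and 6.37 in Bptf KD tumours and 6.47, 6.55 and 6.47 in controls. Epas1 was at 6.16, 5.86 and 6.19 in Bptf KD tumours and 6.23, 6.33 and 6.08 in controls, close to the filter level of 6.09, so that how much of it is background is not known. Arnt, below that level, was at 6.05, 6.04 and 5.96 in Bptf KD tumours and 6.20, 6.02 and 5.91 in controls on its brighter probe set.

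**Figure D3:**
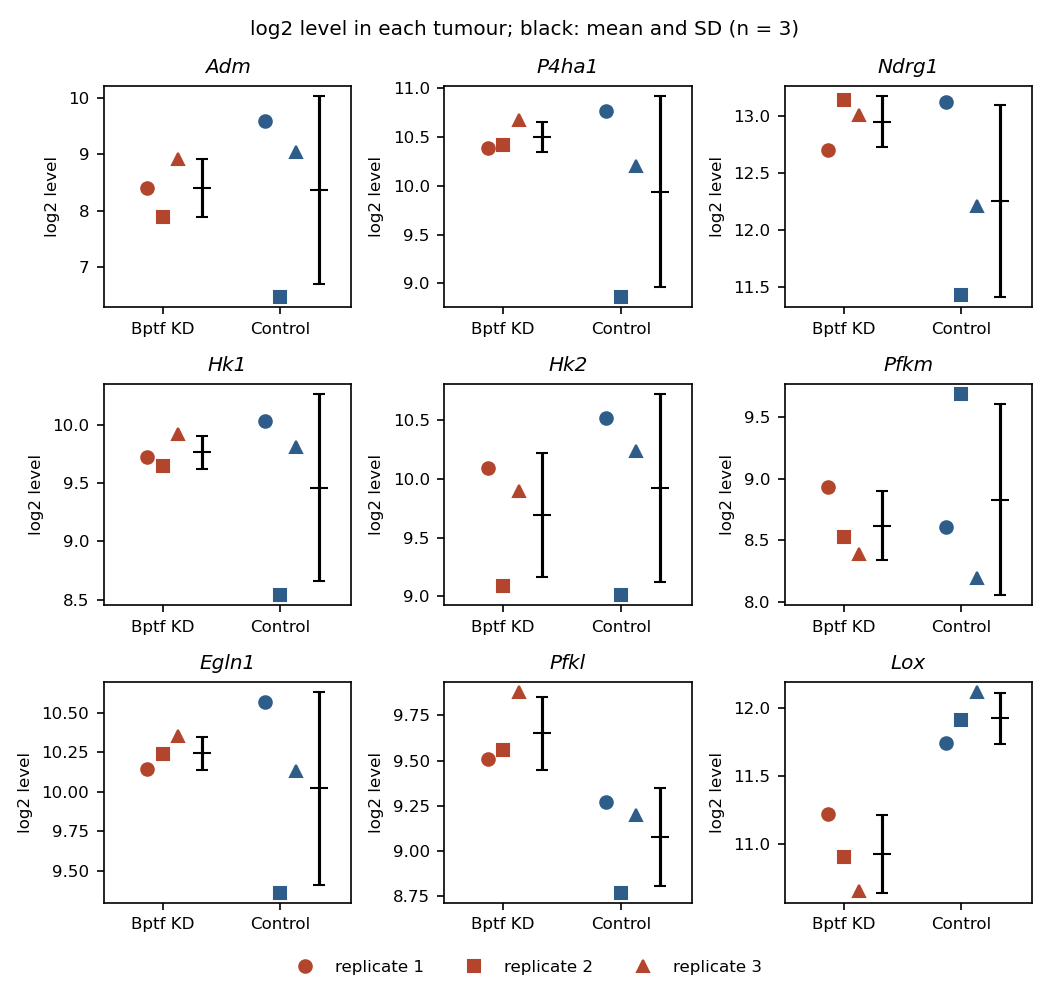
log2 level of 9 of the genes in each tumour, with Bptf KD on the left (red) and control on the right (blue); marker shapes give the replicate number, and black lines give the mean and SD of 3 tumours. For Adm, P4ha1, Ndrg1, Hk1, Egln1, Pfkl and, narrowly, Hk2 the tumour labelled control 2 (blue square) lies below the other 5. For Pfkm it lies above them. Only Pfkl and Lox of the 9 have groups that do not overlap.

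Between the groups, no gene of the 34 differed beyond the threshold. Of all 9248 genes, limma called 75 (0.811%) at an adjusted p under 0.05, and 0 of these were among the 34 (0.151% of all genes were called higher and 0.66% lower). Differences were positive for 21 of the 34, against 60.2% of all genes, and negative for 13, against 39.8%. Lox alone of the 34 reached 2-fold, against 2.71% of all genes. At an unadjusted p under 0.05, limma gave 2 of the 34 higher in Bptf KD tumours (7.66% of all genes) and 1 lower (5.82%). The median difference, Bptf KD minus control, was 0.003 for the glycolytic enzymes, 0.087 for the pathway genes and 0.20 for the non-glycolytic targets, against 0.060 over all genes. Groups did not overlap for Pfkl, Aldoc and Egln3, higher in Bptf KD tumours (3 of 34, against 11.8% of all genes), and for Lox, Ldhb and Hif1a, lower in Bptf KD tumours (3 of 34, against 8.17% of all genes). Both shares are near those of all genes. On other probe sets above the filter level the groups overlapped for Egln3 and Hif1a. For Egln3, control 1 was at 8.89 and Bptf KD 3 at 8.77. For Hif1a, the tumour labelled control 2 was at 6.54 and Bptf KD 1 at 6.65.

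Lox came closest to a call. This secreted copper enzyme crosslinks collagen and elastin, and it is made by fibroblasts as well as by hypoxic tumour cells. Its log2 levels were 11.22, 10.90 and 10.65 in Bptf KD tumours, against 11.74, 11.91 and 12.12 in controls 1, 2 and 3, and every Bptf KD tumour was below every control. The means were 10.92 ± 0.29 in Bptf KD tumours and 11.92 ± 0.19 in controls (SD, n = 3 each), a difference of -1.0 (SE 0.18, 2-fold lower in Bptf KD) with a limma adjusted p of 0.0712. A second probe set gave -0.71. Without the tumour labelled control 2 the difference was -1.01 and passed (limma adjusted p = 0.0431), and the range over all alternatives was 0.0431 to 0.263. Fibroblast markers moved with it: the mean of the 11 measured was 10.8 to 11.1 in Bptf KD tumours and 11.9 to 12.2 in controls, and their part in the difference of Lox was not tested.

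Of the enzymes, Pfkl, the liver-type phosphofructokinase, had the smallest p. Its log2 levels were 9.51, 9.56 and 9.88 in Bptf KD tumours, against 9.27, 8.77 and 9.20 in controls 1, 2 and 3. The difference of 0.57 (SE 0.18, 1.48-fold) had a limma adjusted p of 0.250, and its second probe set gave 0.40. The 3 phosphofructokinase isoforms thus had different patterns: Pfkl was higher in each Bptf KD tumour, Pfkm was high in 1 control, and Pfkp was at 10.15, 9.87 and 9.78 in Bptf KD tumours and 10.39, 9.07 and 9.81 in controls. Whether the isoforms differ in their response was not tested.

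Aldoc, the aldolase isoform of brain, was at 10.25, 10.15 and 9.88 in Bptf KD tumours and 9.83, 9.70 and 9.54 in controls, a difference of 0.40 (SE 0.15, limma adjusted p = 0.321). Ldhb, which favours the use of lactate, was at 8.13, 8.11 and 8.25 in Bptf KD tumours and 8.31, 8.47 and 8.39 in controls. Its difference was -0.23 (limma adjusted p = 0.459), and its 4 probe sets ranged from -0.53 to -0.23. Pdk3, a further kinase of pyruvate dehydrogenase, was at 9.23, 9.51 and 9.06 in Bptf KD tumours and 9.42, 9.30 and 9.71 in controls, a difference of -0.21 (limma adjusted p = 0.672). The differences of the other enzymes lay between -0.23 for Hk2 and 0.34 for Eno2, all with limma adjusted p above 0.7.

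The largest positive differences among the targets moved either way with the tumour left out. Ndrg1 differed by 0.70 (SE 0.40, limma adjusted p = 0.526) and P4ha1 by 0.55 (SE 0.45, limma adjusted p = 0.671). Without the tumour labelled control 2 these became 0.29 (limma adjusted p = 0.538) and 0.013 (limma adjusted p = 0.973), and without control 1 they became 1.13 (limma adjusted p = 0.144) and 0.96 (limma adjusted p = 0.339). Ddit4 differed by 0.69 (SE 0.33, limma adjusted p = 0.434), by 0.33 without Bptf KD 3 and by 0.98 without Bptf KD 2. P4ha2, the second catalytic subunit of collagen prolyl hydroxylase, was at 9.69, 10.00 and 9.59 in Bptf KD tumours and 9.71, 9.17 and 9.52 in controls, a difference of 0.29 (limma adjusted p = 0.570).

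Adm turned sign with the same tumour. Its mean was 8.40 ± 0.52 in Bptf KD tumours and 8.36 ± 1.67 in controls (SD, n = 3 each), a difference of 0.03 (SE 0.78). Without the tumour labelled control 2 the difference was -0.92 (SE 0.31), with every Bptf KD tumour below controls 1 and 3 and a limma adjusted p of 0.121. Hk2 kept its sign, with a difference of -0.23 (SE 0.44) with all tumours and of -0.69 without the tumour labelled control 2 (limma adjusted p = 0.186).

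**Figure D4:**
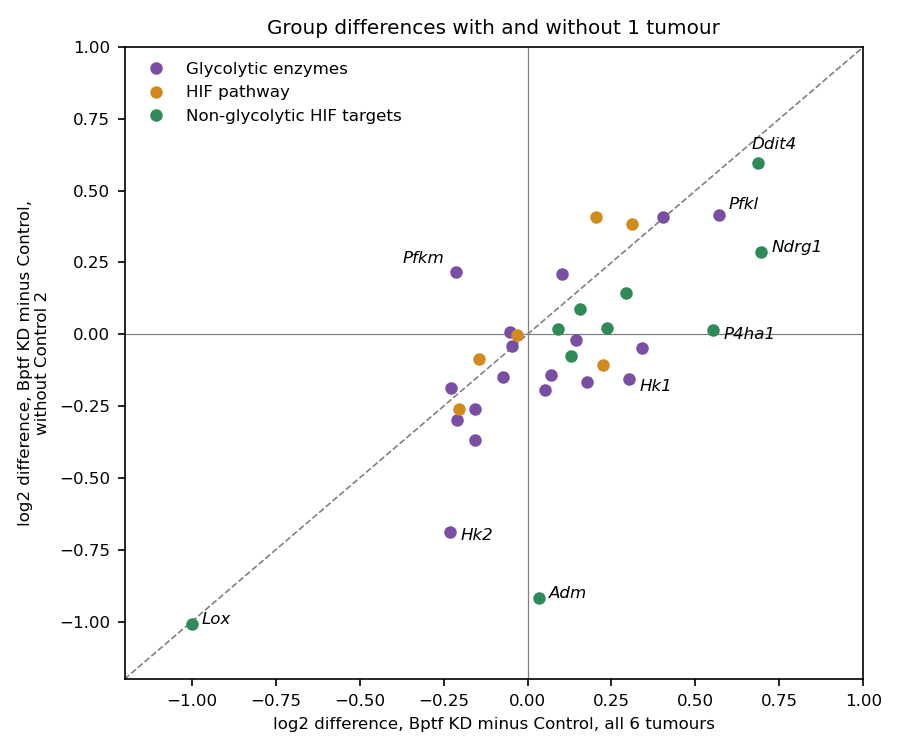
log2 difference, Bptf KD minus control, of the 34 genes with all 6 tumours (horizontal) and without the tumour labelled control 2 (vertical); the dashed line marks equal values and colours give the class. Most points lie below the dashed line; Adm drops to -0.92 and P4ha1 to 0.013, while Lox stays at -1.0 and -1.01.

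Leaving that tumour out moved the classes towards or below 0. The median of the glycolytic enzymes became -0.15, that of the pathway genes -0.04 and that of the non-glycolytic targets 0.02, against 0.042 over all genes, and 14 of the 34 differences were then positive (56% of all genes) and 20 negative (44%). Limma then called 412 genes (4.46%; 1.94% higher and 2.52% lower), of which Lox was the only one among the 34. By unadjusted p under 0.05, limma gave 4 higher (16% of all genes) and 3 lower (11% of all genes). The 4 were Pfkl, Aldoc, Egln2 (0.41, limma adjusted p = 0.0967) and Egln3 (0.38, limma adjusted p = 0.182), and the 3 were Lox, Adm and Hif1a. Bptf itself differed by -0.63 with all tumours (limma adjusted p = 0.371) and by -0.92 without that tumour (limma adjusted p = 0.0305). Because the tumour was set apart by its low Bptf, leaving it out had to enlarge the Bptf difference. This value is therefore no separate check of the labels.

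The HIF pathway genes differed little between the groups. Egln3 had the smallest p of them, with a difference of 0.31 (SE 0.16, limma adjusted p = 0.482) and of 0.43 on its second probe set. Hif1a differed by -0.20 (SE 0.11, limma adjusted p = 0.515), and its 3 probe sets above the filter level ranged from -0.21 to -0.17. Egln1 differed by 0.22, Egln2 by 0.20, Epas1 by -0.14 and Vhl by -0.03, with limma adjusted p from 0.726 to 0.941.

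Other genes of both pathways were read from lists made with earlier results known. Of the 19 further genes of glucose use, limma called 0, and at an unadjusted p under 0.05 there were also 0 (7.66% of all genes higher and 5.82% lower), with a median difference of -0.03, against 0.060 over all genes. Without the tumour labelled control 2, limma called 1 of them, Slc2a3 (4.46% of all genes). Slc2a3 was at 7.52, 7.37 and 7.33 in Bptf KD tumours, against 8.09 and 8.12 in controls 1 and 3 (-0.70, limma adjusted p = 0.0266). By unadjusted p under 0.05, limma then gave 3 higher (16% of all genes) and 1 lower (11%). The 3 with the smallest p were the glycogen branching enzyme Gbe1 (0.38, limma adjusted p = 0.412), the liver glycogen phosphorylase Pygl (0.24) and the pyruvate kinase Pklr (-0.16). Of 25 further HIF targets limma called 0 (0.811% of all genes). At an unadjusted p under 0.05, 4 were lower (5.82% of all genes) and 0 higher (7.66%). Their median was -0.04, against 0.060 over all genes. Without the tumour labelled control 2 there was 1 call, Rora (4.46% of all genes). At an unadjusted p under 0.05, limma then gave 4 lower (11% of all genes) and 0 higher (16%). Rora, a nuclear receptor, differed by -0.60 (SE 0.12, limma adjusted p = 0.0883) and Angptl4, an inhibitor of lipoprotein lipase, by -0.97 (limma adjusted p = 0.226). Ppp1r3c, a glycogen-targeting subunit of protein phosphatase, differed by -1.56 (limma adjusted p = 0.345), and by -0.90 without the tumour labelled control 2. It was at 6.24, 4.77 and 5.51 in Bptf KD tumours and 6.49, 8.40 and 6.32 in controls 1, 2 and 3. Its Bptf KD mean of 5.51 lay below the filter level of 6.09, so that how much of it is background is not known. Angptl4 and Ppp1r3c are also made in fat and muscle: adipocyte markers averaged 6.98 to 7.84 in Bptf KD tumours and 9.55 to 10.43 in controls, and their part in these differences was not tested. Angptl4 was called when replicate numbers were used as a block (limma adjusted p = 0.0486) and Rora without the tumour labelled control 2 (limma adjusted p = 0.0437).

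Of the 25 further HIF targets, 10 were lowest of the 6 tumours in the tumour labelled control 2 (32.1% of all genes). In the same tumour 6 were highest (27.5% of all genes). The median difference from the mean of controls 1 and 3 was -0.13, against 0.03 over all genes. In that tumour 2 of them were at least 2-fold lower than that mean (5.58% of all genes). Only 1, Ppp1r3c, was at least 2-fold higher (3.08% of all genes). The 2 lower ones are given as examples chosen after their values were seen. Car9, a carbonic anhydrase and a much used marker of hypoxia, was at 10.80, 11.22 and 11.12 in Bptf KD tumours, against 11.71, 9.52 and 10.55 in controls 1, 2 and 3. Bhlhe40, a transcriptional repressor, was at 10.65, 10.41 and 10.62 in Bptf KD tumours, against 11.13, 9.50 and 10.61 in controls. Both were highest in control 1 and lowest in the tumour labelled control 2. The 3-prime minus 5-prime difference of the Actb control probes, a sign of RNA quality, was 0.76 to 1.05 in Bptf KD tumours and 0.76, 1.23 and 0.77 in controls 1, 2 and 3, highest in the tumour labelled control 2. That of Gapdh ran from -0.04 to 0.04 in Bptf KD tumours and from -0.08 to 0.06 in controls. The part of RNA quality in these results was not tested.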

How the data were processed

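Total RNA (500 ng per tumour) from 3 Bptf KD and 3 control tumours was hybridised to 1 array each, and the arrays' number limits the precision. RMA, which corrects background, normalises by quantiles and summarises probe sets, made the deposited log2 levels, per the submitters' processing notes, which name no version. No source states the logarithm's base, taken as 2 from the range of 2.98 to 15.17. Of 22690 probe sets, 64 manufacturer's controls were left out of the tests, 20380 named 1 gene by GEO's platform annotation, 691 several and 1555 none. The probe set with the highest mean stood for a gene, and the lowest 30% (below 6.09) were left out.

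The groups were set against each other with lmFit and eBayes of limma 3.58.1 (R 4.3.3) without covariates, with Benjamini-Hochberg adjustment over 9248 genes and a threshold of 0.05. An exact permutation test of 3 against 3 cannot go below p = 0.1 and was not used. The labels do not tie tumours to separate mice, and the limma p-values set each difference against the spread between these samples only. Class medians carry no test. The procedure was tested on simulated data. Promoters and start sites come from RefSeq, GRCm38.p6. The members and lists were chosen with earlier results of these data known. The rule for named genes took all pathway genes, in each other class the 6 with the largest SD and the 4 with the smallest p, and 3 with the smallest p per further list, the last by their differences alone. Other genes were named as members, or as chosen after their values were seen. Alternatives were the filter, the choice of probe set, centring, quantile normalisation repeated, the trend and robust options of eBayes, the replicate number as a block and leaving out each tumour.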

Additional observations from a re-analysis of the deposited data

How the results depend on the processing

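The call rested on few tumours, and the number of arrays limits every size given. Against 75 genes called over all genes, limma called 42 when the lowest 50% of probe sets were left out, and 0 to 412 when each tumour was left out in turn: 2 without Bptf KD 1, 6 without Bptf KD 2, 0 without Bptf KD 3 (where 742 had an unadjusted p under 0.05), 73 without control 1, 412 without the tumour labelled control 2 and 10 without control 3. The 34 genes gave 0 or 1 call when each tumour was left out, the 1 being Lox without the tumour labelled control 2, and 0 under the other alternatives, where the number measured differed with the filter. The replicate number as a block called 107 genes and none of the 34 (limma; 0 called). Whether the numbers pair the tumours is not known. The deviations of same-numbered tumours correlated at 0.0054, 0.28 and 0.37 across genes. Those of tumours with unlike numbers correlated at values from -0.44 to 0.35.

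The median of the non-glycolytic targets stayed positive under all alternatives run, at 0.02 to 0.43 when each tumour was left out. That of the glycolytic enzymes was near 0 and turned to -0.047 with the stricter filter, -0.010 with median centring and -0.023 with a second quantile normalisation, and ranged from -0.15 to 0.15 when each tumour was left out. That of the pathway genes was -0.027 with no filter and 0.21 with the stricter filter, and ranged from -0.044 to 0.097. The cause was not tested, beyond the genes that each filter adds or removes.

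Of 649 gene values under 14 alternatives, 618 kept their direction and their side of the threshold, 26 reversed and 5 passed only in the alternative (Lox, Rora, Slc2a3 and Bptf without the tumour labelled control 2, and Angptl4 with the block). For Bptf the larger difference follows from the choice of that tumour, which was set apart by its low Bptf. With all tumours kept, Pdha1 was 0.0033 on the probe set with the largest SD and Pdk1 was -0.0022 with a second quantile normalisation. When each tumour was left out, the difference ran from -0.92 to 0.65 for Adm, -0.14 to 0.29 for Aldoa, -0.31 to 0.51 for Bhlhe40, -0.083 to 1.01 for Car9, -0.11 to 0.50 for Egln1, -0.047 to 0.69 for Eno2, -0.76 to 0.11 for Eno3, -0.16 to 0.59 for Hk1, -0.69 to 0.072 for Hk2 and -0.077 to 0.40 for Kdm3a. It ran from -0.15 to 0.0083 for Ldha, -0.19 to 0.33 for Pdk1, -0.37 to 0.20 for Pfkfb3, -0.53 to 0.22 for Pfkm, -0.17 to 0.49 for Pfkp, -0.018 to 0.28 for Pgam1, -0.15 to 0.033 for Pkm, -0.048 to 0.29 for Plod2 and -0.082 to 0.018 for Vhl.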
